A study of Homo sapiens with 10 samples.

Results

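C33A is an established line from a human cervical carcinoma that is regarded as deficient in both ATPases of the SWI/SNF chromatin remodelling complexes, and BRM (encoded by SMARCA2) was put back into it from a plasmid. The comparison set the 2 libraries of cells transfected with wild-type BRM (BRM-wt, plasmid pCG-hBrm) against the 2 with an empty vector (control, plasmid pOPRSVI). These were 4 of the 10 RNA-seq libraries of the series. The control plasmid was not the empty pCG plasmid, so the groups differed in plasmid as well as in BRM. All groups were harvested 48 h after transient transfection with a lipid reagent, so the RNA came from transfected and untransfected cells together. The other groups carried wild-type BRG1 (BRG1-wt), or BRG1 or BRM without a working ATPase (BRG1-mut, BRM-mut), and appear here where their tables bound a value for BRM-wt. The members were every event of the 2 splicing tables of BRM-wt and every gene of its expression table. Counted by the middle exon of each event, the splicing tables held 1461 of the 2969 exons listed in the whole series, in 1181 genes. The expression table held 63152 gene identifiers, the same as in the tables of the other groups.

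SWI/SNF complexes use the energy of ATP to slide or evict nucleosomes, mainly at promoters and enhancers, with either BRM or BRG1 as the motor. Splicing takes place while the polymerase is still on the gene, so the same complexes can meet the nascent RNA, and alternative exons are either joined into the mRNA or skipped with the introns around them. Genes of the interferon response are a well known class, and many of their promoters need chromatin remodelling before the transcription factor ISGF3 can bring them to full level.

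The following 5 coding exons are shown because the splicing results turn on them: 3 of those whose PSI moved one way in both replicates, and then 2 whose PSI moved in opposite ways. Capitals mark the exon and lower case the 10 intron bases on each side, read 5′ to 3′ on the strand of the gene from GRCh37. All have AG before the exon and GT after it.
VPS29, chr12:110937340-110937351, minus strand: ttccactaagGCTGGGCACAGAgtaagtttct
ADAP2, longer form, chr17:29253827-29253936, plus strand: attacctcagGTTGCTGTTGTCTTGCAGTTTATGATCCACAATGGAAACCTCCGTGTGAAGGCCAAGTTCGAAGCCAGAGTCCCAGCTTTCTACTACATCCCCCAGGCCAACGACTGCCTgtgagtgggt
SUOX exon 4, chr12:56396327-56396504, plus strand: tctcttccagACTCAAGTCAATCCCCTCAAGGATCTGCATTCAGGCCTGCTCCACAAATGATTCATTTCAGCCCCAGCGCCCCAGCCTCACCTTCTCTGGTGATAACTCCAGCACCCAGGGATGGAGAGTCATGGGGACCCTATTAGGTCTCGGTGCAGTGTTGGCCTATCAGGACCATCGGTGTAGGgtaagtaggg
KLHDC8B exon 5, chr3:49212495-49212596, plus strand: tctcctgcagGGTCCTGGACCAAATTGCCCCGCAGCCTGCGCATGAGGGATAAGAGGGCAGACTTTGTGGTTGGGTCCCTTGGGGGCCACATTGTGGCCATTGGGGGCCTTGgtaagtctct
GADD45A exon 2, chr1:68151708-68151809, plus strand: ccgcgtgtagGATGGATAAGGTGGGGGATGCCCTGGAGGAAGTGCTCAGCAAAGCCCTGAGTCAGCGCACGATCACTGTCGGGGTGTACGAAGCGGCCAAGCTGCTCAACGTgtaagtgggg
The VPS29 exon has 12 bases, so its inclusion keeps the reading frame. The second ADAP2 form, exon 3 of the gene, starts further downstream, right after a second AG inside the longer form, and has 92 bases.

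How the 4 libraries related to each other has to be known before any exon is described. Each splicing table sets 1 BRM-wt library against the control library with the same replicate number and gives for both the PSI (percent spliced in, written here as a fraction from 0 for skipping to 1 for full inclusion). In the 281 exons listed in both tables, the PSI of BRM-wt replicate 1 was closer to control replicate 2 (median absolute difference 0.08) than to its own control (0.32). The PSI of BRM-wt replicate 2 was closer to control replicate 1 (0.07) than to its own control (0.29). The 2 control libraries differed from each other by a median of 0.20, and the 2 BRM-wt libraries by 0.42. So for these exons the libraries most alike were of unlike treatment and unlike number, and the cause was not tested. An event was listed only where MISO gave a Bayes factor over 10 for that pair of libraries, which uses the same PSI values, so listed exons had to differ and the size of the changes is a description. No read numbers came with the events, and the depth behind each PSI is unknown.

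**Figure D1:**
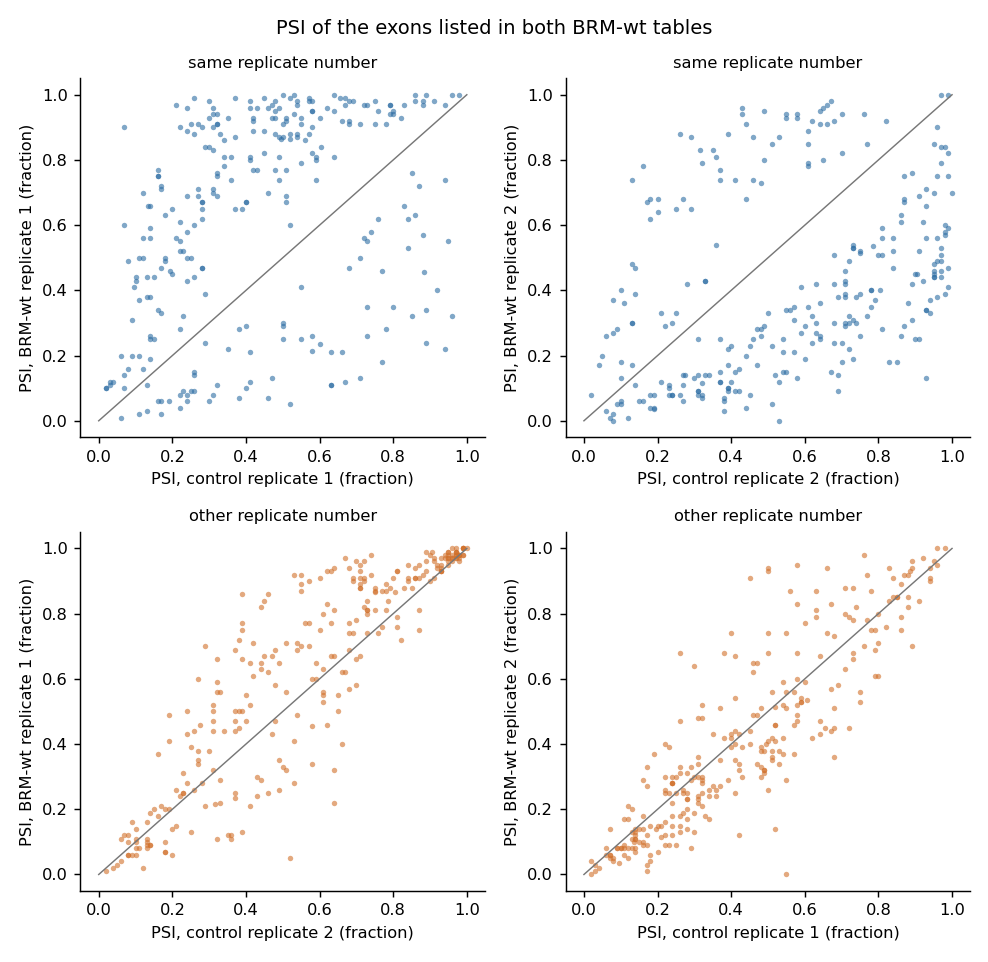
PSI of the 281 exons listed in both BRM-wt tables, as a fraction, in 1 BRM-wt library (vertical axis) against 1 control library (horizontal axis), with 1 point per exon and the line of equal PSI. In the lower panels, which join libraries of unlike number, points lie near the line (median distance 0.08 and 0.07), and in the upper panels, which join libraries of the same number, they lie away from it (0.32 and 0.29).

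Across all listed exons, wild-type BRM went with more inclusion in replicate 1 and with less in replicate 2. The table of replicate 1 held 799 exons, of which 481 (60.2%) had a higher PSI in BRM-wt than in control. Of the 945 exons in the table of replicate 2, 406 (43.0%) had a higher PSI in BRM-wt. The absolute change in PSI had a median of 0.29 in replicate 1 (quartiles 0.16 and 0.43) and of 0.26 in replicate 2 (quartiles 0.14 and 0.40). The exons listed in 1 table alone were closer to an even split, with 272 of 516 higher (52.7%) for replicate 1 and 325 of 662 (49.1%) for replicate 2. A further 2 exons, in ISCU and GGCT, were in both tables through different flanking exons.

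In the 281 exons of both tables, 13 kept one direction of change and 268 turned round between the replicates. Of the opposite ones, 198 had a higher PSI in BRM-wt in replicate 1 and a lower one in replicate 2, and 70 the reverse. For the 198, the median PSI of control and BRM-wt was 0.34 and 0.82 in replicate 1, and 0.69 and 0.29 in replicate 2. For the 70, the medians in the same order were 0.59, 0.23, 0.35 and 0.76. In both sets the high libraries by median were 1 control and 1 BRM-wt library. That the groups overlapped in every one of these exons follows from the opposite directions by which the sets were formed. A fit of the log2 odds of PSI over the 281 exons with limma called 0 exons at an adjusted p under 0.05, which is 0% of those tested, and 0 had an unadjusted p under 0.05. The smallest p of limma was 0.088, for VPS29 (adjusted p = 1.00). The standard error of the difference was 2.23 log2 odds for each exon, since limma took 1 spread for them all, so a change in PSI common to both replicates was not detectable here unless it was very large.

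**Figure D2:**
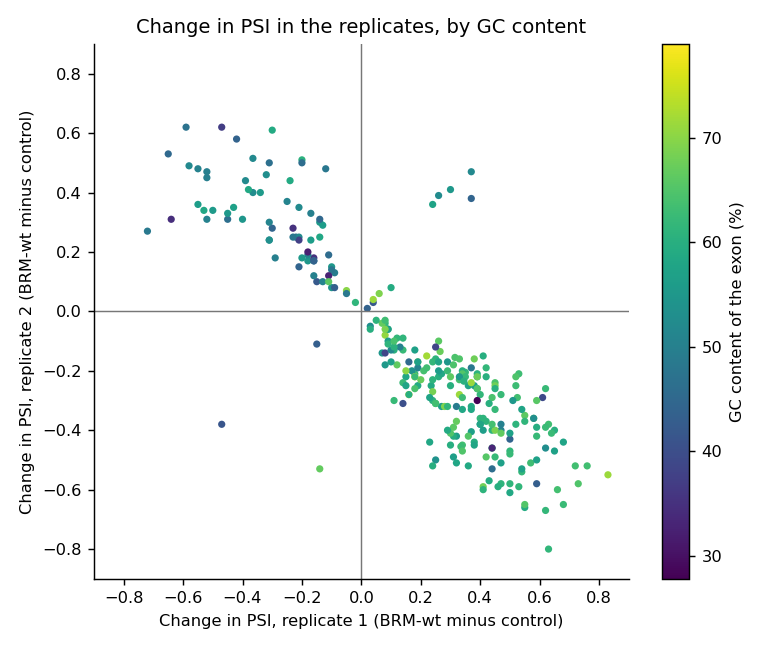
Change in PSI (BRM-wt minus control, as a fraction) in replicate 1 (horizontal axis) and replicate 2 (vertical axis) for the 281 exons listed in both tables, coloured by GC content of the exon. The 198 exons at the lower right and the 70 at the upper left changed in opposite directions, the GC-rich ones mostly lie at the lower right, and 13 lie in the other corners.

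The 13 exons with one direction in both replicates came from 10 genes, 10 of them higher and 3 lower in BRM-wt. In all 13 both BRM-wt libraries lay beyond both control libraries. The exons were chosen for one direction, and with 0% called over all 281 exons this count is a description. SUOX, the mitochondrial sulfite oxidase, had a PSI for exon 4 of 0.56 and 0.46 in the control libraries, replicate 1 first, against 0.86 and 0.87 with BRM-wt. For the longer form of the ADAP2 exon, in a GTPase-activating protein of ARF6, the control libraries gave 0.45 and 0.44, against 0.82 and 0.91 with BRM-wt. The 92-base form of the same exon had 0.66 and 0.55 without and 0.92 and 0.94 with BRM-wt. In SUOX and ADAP2 both BRM-wt libraries thus stood well above both control libraries. TPRKB, a subunit of the KEOPS complex that modifies tRNA, had an exon of 61 bases (chr2:73961655-73961715) with a PSI of 0.50 and 0.55 in the control libraries against 0.87 and 0.93 with BRM-wt, and the annotation places it outside the coding sequence. SUGP2, a G-patch protein related to splicing factors, had a 214-base exon at chr19:19102149-19102362 with 0.46 and 0.29 in the control libraries against 0.70 and 0.65 with BRM-wt. In SUGP2 the control libraries themselves lay 0.17 apart.

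The lower exons were in VPS29, EFCAB11 and C6orf52. VPS29, a subunit of the retromer that recycles membrane proteins from endosomes, had a PSI for its 12-base exon of 0.55 and 0.53 in the control libraries, against 0.41 and 0.00 with BRM-wt. The BRM-wt libraries were both below control there but 0.41 apart. Exon 2 of C6orf52 (chr6:10687713-10687794), an open reading frame with no established role, had 0.52 in each control library, against 0.05 and 0.14 with BRM-wt. EFCAB11, an EF-hand protein, had a 165-base exon (chr14:90390857-90391021) with 0.17 and 0.12 in the control libraries, against 0.02 and 0.01 with BRM-wt. The remaining higher exons moved little. HNRNPA1, an RNA-binding protein that represses exons, had 0.29 and 0.25 for exon 8 (chr12:54676863-54677018) in the control libraries, against 0.39 and 0.33 with BRM-wt, and this exon codes for part of its glycine-rich domain. Both forms of a YWHAZ exon (a 14-3-3 adaptor protein) were higher by 0.04 to 0.06, and both forms of HIGD1A exon 2 (a mitochondrial protein induced by hypoxia) by 0.01 to 0.04 near full inclusion. HNRNPA1 and YWHAZ have processed copies elsewhere in the genome, which could take some of the reads, and their values are uncertain for that reason.

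**Figure D3:**
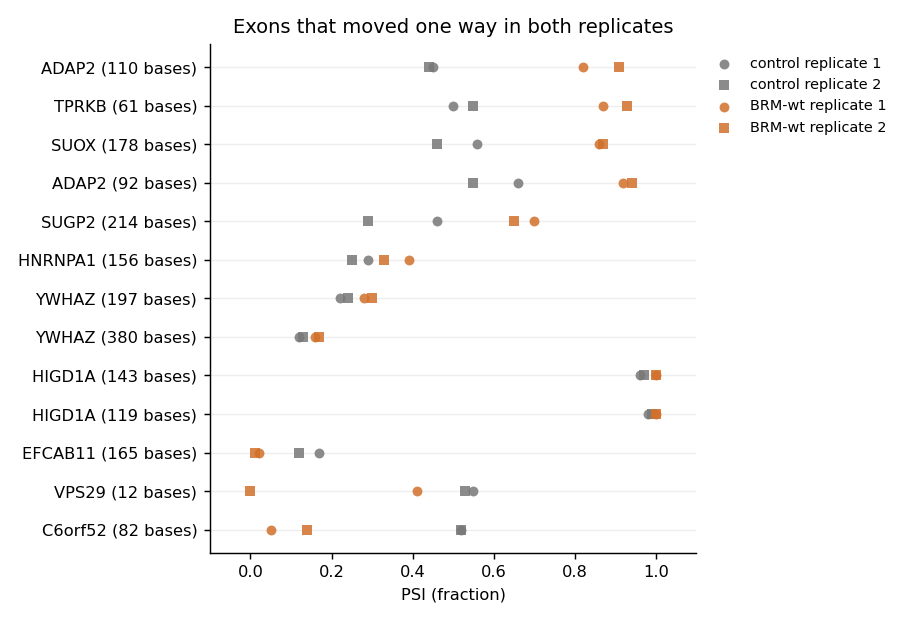
PSI (fraction) of the 13 exons that moved one way in both replicates, in each control library (grey) and each BRM-wt library (orange), ordered by mean change, with the exon length in bases. ADAP2, TPRKB, SUOX and SUGP2 show both BRM-wt libraries to the right of both control libraries, and C6orf52 shows them at 0.05 and 0.14 against 0.52.

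Most of these exons were listed for another group too. Of the 13, 6 were in a table of BRM-mut, 7 in one of BRG1-wt and 8 in one of BRG1-mut, and 10 were in at least 1 of them. Among all 281 exons these shares were 30.6%, 44.8%, 79.0% and 86.5%. All these tables use the same control libraries, so their values are only set side by side. TPRKB had a PSI of 0.88 in BRM-mut replicate 1, 0.93 in BRG1-wt replicate 2, and 0.91 and 0.94 in BRG1-mut, close to the 0.87 and 0.93 of BRM-wt. ADAP2 in its 92-base form had 0.89 in BRM-mut, 0.87 in BRG1-wt and 0.92 in BRG1-mut, all in replicate 2. SUOX had 0.82 in BRG1-mut replicate 2, and these exons of HNRNPA1 and HIGD1A were in none of the tables of the other groups.

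Opposite changes were ranked by the smaller of the 2 changes of an exon, and the exons named here lead that order. A larger change in a single replicate was in SPHK2, a sphingosine kinase named after its values were seen, with 0.07 in control and 0.90 in BRM-wt in replicate 1 and 0.69 and 0.14 in replicate 2. KLHDC8B, a kelch-repeat protein of the dividing cell, had a PSI for exon 5 of 0.26 in control and 0.88 in BRM-wt in replicate 1, and of 0.85 and 0.18 in replicate 2. OGG1, the glycosylase that cuts oxidised guanine from DNA, had for exon 4 (chr3:9796388-9796569) 0.25 and 0.91 in replicate 1 and 0.69 and 0.09 in replicate 2. The receptor tyrosine kinase ERBB2 had for exon 26 (chr17:37883548-37883800) 0.26 and 0.99, and then 0.89 and 0.31. In all of these the high libraries were BRM-wt replicate 1 and control replicate 2. Exons of TTC28-AS1, an antisense RNA, and of the non-coding gene ENSG00000291276 had the same pattern, with changes of 0.68 and 0.63 in replicate 1 and of -0.65 and -0.80 in replicate 2. Strand-specific reading is not stated, so TTC28-AS1 cannot be told apart from TTC28 on the other strand. The reverse pattern was largest in TMCO6, RPLP1 (a protein of the ribosomal stalk), MICOS10 (which shapes mitochondrial cristae), HDLBP (the RNA-binding protein vigilin) and TSN (translin, which binds nucleic acids). TSN had for its exon at chr2:122514816-122515010 a PSI of 0.73 in control and 0.26 in BRM-wt in replicate 1, and of 0.26 and 0.88 in replicate 2.

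GADD45A, a stress-induced inhibitor of cell growth, MYL6, a myosin light chain, and MAZ, a zinc finger transcription factor, were the genes whose exons the study followed in detail. By qPCR the study reports more inclusion with BRM-wt for an exon of each gene. It also reports the form with GADD45A exon 2 as the most abundant one in C33A, and the control PSI given here is well below that. Exons with opposite effects in the replicates were discarded in the study. GADD45A exon 2 had a PSI of 0.08 in control and 0.49 in BRM-wt in replicate 1, and of 0.19 and 0.04 in replicate 2. Exon 3 of GADD45A (chr1:68152033-68152270) had 0.20 and 0.46 in replicate 1 and 0.28 and 0.14 in replicate 2. MYL6 exon 6 (chr12:56554410-56554454, 45 bases) had 0.07 and 0.14, and then 0.10 and 0.06. All of these exons were thus higher in BRM-wt in replicate 1 and lower in replicate 2, and BRM-wt replicate 2 was the lowest of the 4 libraries in each. The 225-base MAZ exon at chr16:29820861-29821085 was listed for replicate 1, with 0.08 in control and 0.13 in BRM-wt, and it had 0.08 in control replicate 2. SMARCA4, which encodes BRG1, had exon 27 (chr19:11144443-11144541) listed for replicate 2, with 0.03 in control and 0.32 in BRM-wt, beside 0.11 in control replicate 1. No event of CD44 or SMARCA2 was listed for BRM-wt. Their control means were at most 11.8 and 19.1 normalised reads, so a PSI in control could hardly be obtained. The absence does not show that their splicing was unchanged.

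Among exons listed in 1 table alone, single changes reached 0.79 in replicate 1 and 0.80 in replicate 2. In replicate 1 the collagen hydroxylase subunit P4HA1 had exon 11 (chr10:74776604-74776657) at 0.98 in control and 0.19 in BRM-wt. The sterol-sensing transcription factor SREBF2 had a coding exon of 198 bases at 0.78 and 0.04, and UCKL1, AGAP9 and LETM2 were lower by 0.77, 0.75 and 0.70. The largest positive changes of replicate 1 were 0.73 in RASA4 exon 17, 0.72 in ARFIP2, 0.69 in SLC45A3 exon 2, and 0.67 in RARG exon 3 and RPH3AL exon 9. In RASA4 the control libraries stood at 0.14 and 0.95, on either side of the 0.87 of BRM-wt, whereas SLC45A3 had 0.21 and 0.22 in the control libraries and 0.90 in BRM-wt. So a large change against one control library could be large or small against the other. In replicate 2 the dystrobrevin gene DTNB had exon 16, of 21 bases, at 0.04 in control and 0.74 in BRM-wt. TMEM218, BAIAP2, DLX6-AS1 and ARHGEF3 were higher by 0.65 to 0.66 in that replicate. TRIM35 exon 2 had 0.92 in each control library and 0.12 in BRM-wt replicate 2, and C1RL, ZYX, POLR2J3 and ABHD14B were lower by 0.69 to 0.75. RASA4, AGAP9 and POLR2J3 have near-identical copies nearby, and their PSI is uncertain for that reason.

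For part of the events of 1 table, the PSI of the other control library was known from the tables of the other groups. Each of these events was listed because BRM-wt differed from the control of its own number. That choice favours a PSI outside both controls, so the counts that follow are a description. Of 90 such events for replicate 1, the BRM-wt PSI was above or below both controls in 81, by at least 0.2 from both in 36. For replicate 2 these were 98 (88.3%) and 34 of 111 events. In the 293 events of both tables, BRM-wt replicate 1 lay outside both controls in 258, by at least 0.2 from both in 65, and BRM-wt replicate 2 in 250 and 33. The control libraries differed by a median of 0.10 and 0.08 in the events of 1 table, against 0.20 in the exons of both tables.

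GC content moved with the direction of the change, in opposite ways in the replicates. In replicate 1, exons with a higher PSI in BRM-wt had a GC content of 57.5% ± 9.5 (SD, n = 481 exons), and those with a lower PSI 48.9% ± 7.8 (n = 318). In replicate 2 the higher ones had 47.9% ± 8.0 (n = 406), and the lower ones 56.1% ± 9.5 (n = 539). The exons shared their libraries, so these are descriptions of 2 pairs of libraries. Among exons of at least 65% GC, 92 of 97 were higher in replicate 1 (mean change 0.31 ± 0.21, SD) and 9 of 80 in replicate 2 (-0.27 ± 0.25). Below 45% GC, 56 of 155 were higher in replicate 1 (36.1%) and 148 of 238 in replicate 2 (62.2%). The control libraries moved with GC content too. In the 160 exons of both tables with 55 to 65% GC, the mean PSI of the control libraries was 0.42 and 0.62, replicate 1 first, beside 0.72 and 0.38 for BRM-wt. In the 56 exons with 45 to 55% GC the order was the reverse, with 0.50 and 0.45 for the control libraries against 0.42 and 0.58 for BRM-wt. The part of GC content in the result was not tested.

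**Figure D4:**
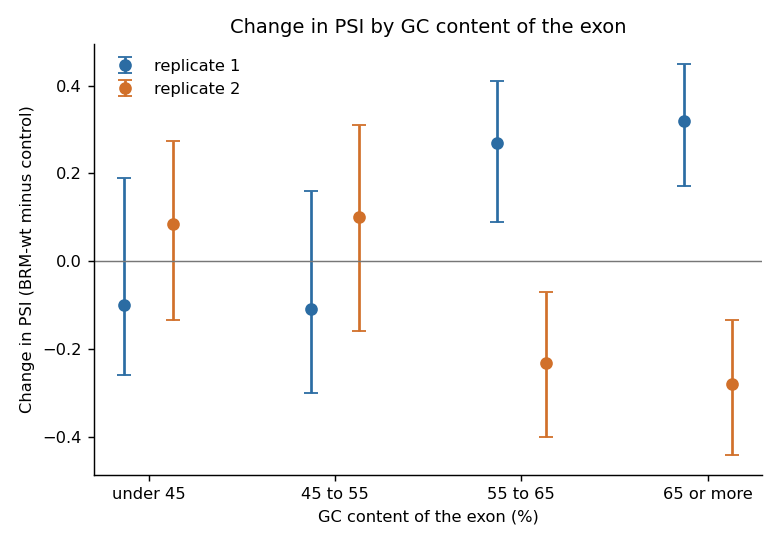
Change in PSI (BRM-wt minus control, as a fraction) by GC content of the exon in 4 ranges, for replicate 1 (blue) and replicate 2 (orange). Points are medians over exons and bars run from the lower to the upper quartile, and from 55% GC upwards the bars of replicate 1 lie above 0 and those of replicate 2 below it.

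Position in the gene moved along with GC content. In the 198 exons that were higher in replicate 1 and lower in replicate 2, 128 were wholly coding, and in the 70 with the reverse pattern 10 were, while 36 of the 70 lay outside coding sequence. Their GC contents were 60.1% ± 6.8 (SD) and 50.1% ± 7.3. The median lengths were 186 and 242 bases. Lengths that keep the reading frame made up 40.4% and 38.6% of these sets.

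Listed exons in the gene lists are read against 9.28% of the genes above the minimum base mean that had a listed exon, and against the 95.4% of exons in both tables that went opposite ways. The 48 SR and hnRNP regulators had 20 listed exons in 14 genes, 7 of them in both tables, of which HNRNPA1 exon 8 alone kept one direction, so 6 of 7 went opposite ways as did nearly all exons. The genes with a listed exon were 29.2% of this list, 34.5% of the SWI/SNF list and 17.5% of the ribosomal one. In the core spliceosome list they were 8.33%, in the immediate early one 10.0%, in annexins and S100 9.52%. The share was 3.57% in the RB and E2F list and 2.70% in the interferon-stimulated and the matrix lists. For keratins and heat shock genes it was 0%, and none of these differences was tested. HNRNPUL1, an hnRNP of the nucleus, had 3 forms of exon 14, and the annotated form had a PSI of 0.27 in control and 0.91 in BRM-wt in replicate 1 and of 0.60 and 0.19 in replicate 2. RBM39, a splicing factor related to U2AF, had an exon with 0.70 in control and 0.34 in BRM-wt in replicate 2. The 29 SWI/SNF subunits had 11 exons in 10 genes. The bromodomain subunit PBRM1 had exon 29 at 0.18 in control and 0.49 in BRM-wt in replicate 1, and at 0.54 and 0.15 in replicate 2. BRD9, of the non-canonical complex, had a 513-base exon at 0.26 in each control library and at 0.79 in BRM-wt replicate 2, and SS18 had one at 0.78 and 0.22 in that replicate. Both exons of the core spliceosome in both tables, in PRPF6 and SNRNP70, went opposite ways.

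The 40 cytosolic ribosomal proteins had 11 exons in 7 genes, 7 in both tables, and all of these went in opposite directions, as did 95.4% of all exons in both tables. RPLP1 had 0.89 and 0.24 in replicate 1 and 0.43 and 0.96 in replicate 2, and RPS2 exon 6 had 0.54 and 0.87, and then 0.75 and 0.52. Ribosomal protein genes have many processed copies, so these values are uncertain. The adhesion receptor ITGB1 had an exon outside the coding sequence at 0.94 and 0.22, and then 0.64 and 0.91. FOSB exon 2 stood at 0.07 and 0.61 in replicate 1 with 0.10 in control replicate 2. KLF6 exon 3 stood at 0.97 and 0.65 in replicate 2. The membrane-binding protein ANXA2 had 2 listed exons and S100A13 had 1, all lower in replicate 2, and OASL (an interferon-induced protein) and MCM5 (a DNA helicase subunit) had 1 each, higher by 0.14 and 0.10. No exon of a keratin, heat shock or cell type marker gene was listed.

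Expression of genes in BRM-wt was read from the base mean, the mean of the normalised reads of a gene over the 4 libraries of a table, since the values of single libraries were not used here. Each table averages the 2 libraries of its group with the same 2 control libraries. The control mean can therefore be at most 2 times the lowest base mean that any table gives, and the rest of the base mean of the BRM-wt table must come from the BRM-wt libraries. This gives a lower bound for the ratio of BRM-wt to control but no spread and no test, and it does not show whether both BRM-wt libraries were high. It holds as far as the size factors agree between tables, which were brought to one scale over 11646 genes. SMARCA2 (chr9:1980290-2193624 in GRCh37) is the check of the labels. Its base mean was 61419 in the BRM-wt table and 72816 in that of BRM-mut, against 12.6 for BRG1-wt and 9.53 for BRG1-mut. The control mean of SMARCA2 was thus at most 19.1, and BRM-wt was at least 6443-fold higher, with reads from the plasmid included. For SMARCA4 the base mean was 3978 with BRM-wt and 2963 with BRM-mut, so its mean in control was at most 5926.

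A base mean of 100 was reached by 11905 genes of the BRM-wt table, and 51 of them (0.428%) had at least 3 times the lowest base mean of the other tables, which sets BRM-wt at 2-fold control or more. The median ratio of all 11905 genes was 1.06. All but 1 of the 51 code for proteins. The lowest table was that of BRM-mut for 43, of BRG1-mut for 8 and of BRG1-wt for 0. The ratio therefore does not set BRM-wt apart from BRG1-wt.

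Of the gene lists, the interferon-stimulated genes had the most members past the ratio. In that list of 37 genes, 9 had a base mean under 100 in the BRM-wt table, and of the 28 above it 14 were past the ratio, so the count covers only genes that were high enough in this table. The antiviral GTPase MX1 (chr21:42791947-42841998) had a base mean of 1535 with BRM-wt and 1935 with BRG1-wt, but 31.96 with BRM-mut and 67.4 with BRG1-mut. This puts BRM-wt at 47.0-fold control or more. MX2 had 153 and 178 against 3.16 and 5.79 in the same order, a bound of 47.5-fold. OAS1 and OAS2, which make the activator of RNase L, had 712 and 1446 with BRM-wt and 21.7 and 41.7 with BRM-mut, and bounds of 31.9-fold and 33.7-fold. The BRG1-wt table held 893 and 1409 for them, so for OAS1 and OAS2 the high base means came with both wild-type ATPases and the low ones with both mutants. XAF1, which promotes cell death, had 288 with BRM-wt, 333 with BRG1-wt and 8.16 with BRM-mut (bound 34.3-fold). IFI6 had 1504, 2390 and 152 in the same order (8.88-fold). IFIT1, which binds viral RNA, had 8239, 7908 and 1222 (5.74-fold). OAS3, IFI27, ISG15, IFIT3, IFIH1, RIGI and IFI35 were past the ratio too, with bounds from 2.94-fold for RIGI and IFI35 to 4.01-fold for ISG15. ISG15 had 735 with BRM-wt and 1190 with BRG1-wt, against 632 with BRG1-mut and 147 with BRM-mut. Its wild-type values were thus the higher ones too, but that of BRG1-mut came close to BRM-wt. STAT2 and IRF9, parts of ISGF3, had ratios of 1.79 and 2.13, so these did not reach 3. Without the table of BRM-mut the bounds were 21.8-fold for MX1, 25.5-fold for MX2, 19.3-fold for OAS1 and 3.46-fold for IFI6.

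Among the 25 genes with the largest ratios were 8 genes outside the lists that are described together here, as chosen after their values were seen. SP100, of the PML nuclear bodies, had 290 with BRM-wt, 277 with BRG1-wt and 3.89 with BRM-mut (bound 73.5-fold). TRIM22, a ubiquitin ligase that restricts viruses, had 118, 103 and 3.89 in the same order (29.2-fold). DDX60, DDX60L, SAMD9, CMPK2, LGALS3BP and PARP9 had bounds between 5.04-fold for PARP9 and 8.31-fold for DDX60L. Without the table of BRM-mut the bounds were 44.7-fold for SP100 and 2.31-fold for LGALS3BP.

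**Figure D5:**
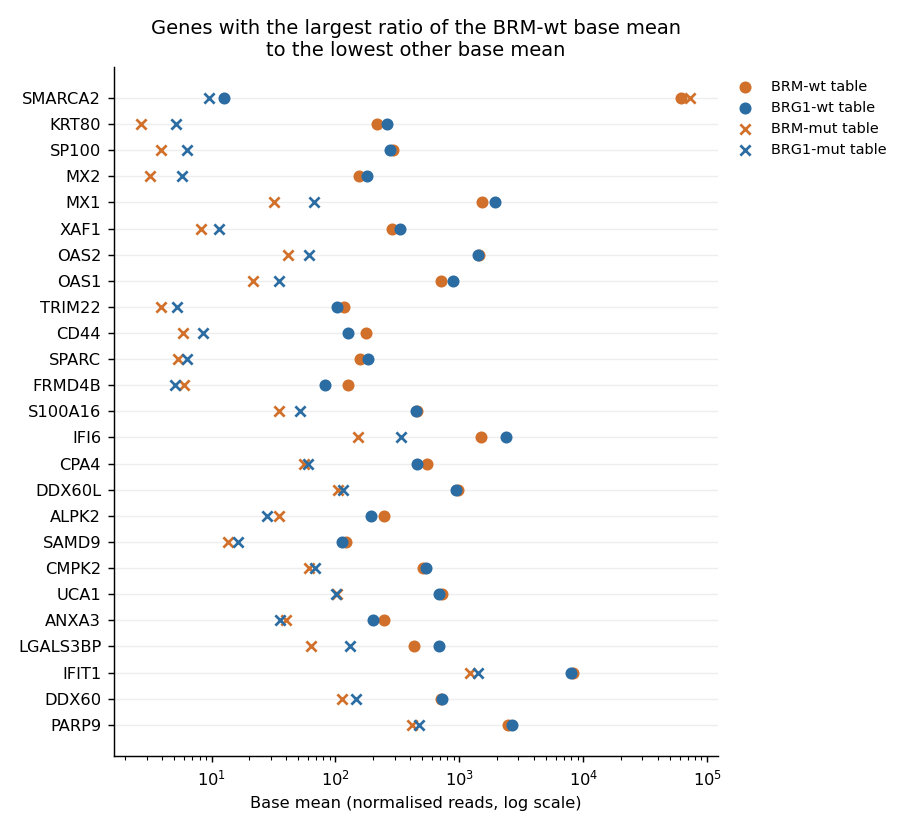
Base mean (normalised reads, log scale) of the 25 genes with the largest ratio of the BRM-wt base mean to the lowest other base mean, in the tables of BRM-wt and BRG1-wt (circles) and of BRM-mut and BRG1-mut (crosses). For MX1 the circles lie at 1535 and 1935 and the crosses at 31.96 and 67.4, and for SMARCA2 the BRM tables lie at 61419 and 72816.

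In the matrix and adhesion list 3 of the 24 genes above the minimum were past the ratio, and the median ratio of the 24 was 1.32. CD44, the hyaluronan receptor (chr11:35160429-35253949), had a base mean of 176 with BRM-wt, 126 with BRG1-wt, 5.88 with BRM-mut and 8.56 with BRG1-mut, which bounds BRM-wt at 28.9-fold control. SPARC, a matrix protein that binds collagen, had 157, 184, 5.33 and 6.31 in the same order (28.5-fold). The collagenase MMP1 had 660 with BRM-wt, 486 with BRG1-wt and 119 with BRG1-mut (4.54-fold). A further 13 of the 37 genes of this list were under the minimum. ITGB1 and FN1 had ratios of 1.02 and 1.22, near the median of all genes. KRT80, a keratin, had 216 with BRM-wt, 260.5 with BRG1-wt and 2.71 with BRM-mut (bound 78.9-fold, and 40.9-fold without the BRM-mut table). KRT8 had 382, 454 and 87.5 in the same order (3.37-fold). KRT18, its partner, had 608 with BRM-wt and a lowest other value of 254, a ratio of 2.40. The other 14 of 17 keratins were under the minimum, with KRT4 the highest of them at 16.4. Keratin 8 and 18 genes have many processed copies, which leaves their values uncertain. Of 13 annexin and S100 genes above the minimum 3 were past the ratio, with a median ratio of 1.25. S100A16, ANXA3 and S100A4 had bounds of 12.0-fold, 5.84-fold and 2.59-fold, while ANXA1, ANXA2 and ANXA5 had ratios of 1.30, 1.18 and 1.03. The 25 genes were completed by FRMD4B (23.9-fold), the carboxypeptidase CPA4 (8.87-fold), the kinase ALPK2 (7.90-fold) and the long non-coding RNA UCA1 (6.15-fold).

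Most other gene groups stayed at the ratio of all genes. Within the SWI/SNF list SMARCA2 alone was past the ratio, and the median over its 27 genes above the minimum was 1.05. None of the 46 SR and hnRNP regulators, 36 core spliceosome genes, 40 ribosomal proteins, 26 genes of the RB and E2F cell cycle, 14 heat shock genes or 14 immediate early genes above the minimum was past it, with medians of 1.04, 1.03, 1.04, 1.04, 1.06 and 1.09. The highest ratios in these lists were 1.37 for MBNL2, 1.64 for SF3A2, 1.44 for RPS15, 1.38 for CCND1, 1.78 for HSPB1 and 1.35 for FOSL1. A ratio near 1 does not show that a gene did not change, since the bound is blind to a fall and to a rise that the other groups shared.

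A lower level in BRM-wt can hardly be seen in base means, since each one averages in the control libraries. Even a gene lost with BRM-wt would give a ratio of at most 2 where the other groups equal control. Among the 11652 genes with at least 100 in each of the other tables, the largest ratio of the lowest other base mean to that of BRM-wt was 1.16, for ENSG00000260196. It was followed by RPL23AP2, FMN2, SYP and SLC35A1 with smaller ratios, and the immediate early gene FOS had 388 with BRM-wt and 427 to 497 in the other tables. HSPA6, a heat shock protein chosen after its values were seen, lay below the minimum, with 22.4 in the BRM-wt table and 91.5 to 150 in the others. Its mean in control and in BRM-wt was thus at most 44.8, and in the other groups at least 138.

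Of the 51 genes past the ratio, 1 had a listed exon, a share of 2.0% of the 51 and of 0.085% of the genes with listed exons. Over all 11681 genes above the minimum with a symbol, 1084 (9.28%) had a listed exon, and the difference was not tested. An exon could be listed only with a PSI in the control library as well. The control mean was low for several of the 51 genes, such as at most 6.32 for MX2 and 10.7 for SPARC. For others the bound on the control mean was far higher, such as 2809 for OAS3 and 2445 for IFIT1. Whether low control means account for the low share was not tested. The share is no sign that changes in expression and in splicing were separate. The gene with a listed exon was PLSCR1, an interferon-induced scramblase. Its exon 2 of 26 bases had a PSI of 0.23 in control and 0.87 in BRM-wt in replicate 2. The base mean of PLSCR1, 1195, bounds BRM-wt at 4.93-fold control.

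The promoters of the interferon genes IFI6, IFIT1 and ISG15 are shown as examples that hold the letters of the ISRE, the element bound by ISGF3. The motif searched was GAAANNGAAA on both strands, counted at each start, in the RefSeq promoters of GRCh38.p14 from 250 bases before to 50 after the gene start. A gene counted where any of its promoters held it. Capitals mark the matches.
IFI6, chr1:27672266-27672358, minus strand: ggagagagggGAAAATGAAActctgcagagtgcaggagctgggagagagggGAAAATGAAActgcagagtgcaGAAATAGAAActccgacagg
IFIT1, chr10:89392497-89392539, plus strand: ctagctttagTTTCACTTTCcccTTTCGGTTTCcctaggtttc
ISG15, chr1:1013374-1013409, plus strand: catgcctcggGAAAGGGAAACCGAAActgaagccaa
IFI6 held 3 matches, between 93 and 156 bases before the gene start, and IFIT1 and ISG15 2 each, which overlap in ISG15. Of the 51 genes past the ratio 40 had a promoter in the table and 18 of them (45%) held the motif, against 1195 of all 27305 genes (4.38%). It was in 8 of the 12 listed interferon genes with a promoter and in 10 of the other 28. The 51 genes were chosen for high base means with BRM-wt, while the 27305 genes were not held to the minimum base mean. These shares are thus not of like sets, and the difference was not tested. A match is a description of the letters, and binding was not measured here.

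Markers of cell types were read from the BRM-wt table as a check of the line. RB1 had a base mean of 2390, KRT18 and KRT8 had 608 and 382, and EPCAM (23.3), CDH1 (5.47) and KRT19 (1.23) were low, so the epithelial surface markers were nearly absent. Of the leukocyte markers PTPRC had 1622, while CD14, LYZ and CD3E lay between 0 and 9.53. The fibroblast markers COL3A1 and COL1A2 had 4188 and 252, with DCN and LUM at 12.0 and 32.5, and the endothelial markers CDH5 and VWF had 2.69 and 5.13. PTPRC and COL3A1 had ratios of 1.04 and 1.16, near the median of all genes.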

How the data were processed

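RNA-seq was made from 10 libraries of C33A cells, with 2 replicates in each of 5 groups, and the 4 of BRM-wt and control were compared. Per the labels and the submitters' processing notes, the authors mapped reads with TopHat2 2.0.4 to GRCh37, counted them on genes with HTSeq 0.6.1 and ran DESeq2, and compared each transfected library with the control of the same number by MISO. PSI was used as deposited, as a fraction, and the deposited events had a Bayes factor over 10. The base mean is a signal that the authors computed with DESeq2 as the mean of normalised reads over 4 libraries, with no values for single libraries. The same deposited tables hold the authors' fold changes, standard errors, p-values, Bayes factors and directions, which are their own comparisons and were not used. A second copy of the BRG1-wt table was not used. Reads per event are not given, so the depth and precision of a PSI are unknown.

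The control library of a splicing table was taken from the library identifier that all tables of that replicate number share, and its PSI was checked to be equal in all of them. Events were grouped by middle exon and matched to GENCODE (lifted to GRCh37) with pandas 2.3.3 and pysam 0.24.0 in Python 3.11.15, and 1402 of the 1461 exons matched exactly. An exon of both tables took the mean PSI of the events listed in both, and exon numbers are those of the canonical transcript. The log2 odds of PSI, bounded at 0.01 and 0.99, were fitted with limma 3.58.1 in R 4.3.3 without a replicate block, with Benjamini-Hochberg adjustment. The code of the fit was tested on simulated data with known changes, which says nothing of its power here. An exact permutation test of 2 against 2 libraries cannot go below p = 0.333. Replicates are separate transfected libraries by their labels, with nothing said of separate cultures, so p-values measure only the spread between these libraries.

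Base means were scaled between tables by the median ratio over 11646 genes, and the BRM-wt table was compared with the lowest of the other 3. Symbols were matched for 55139 of the 63152 identifiers, and older symbols through RefSeq. Named were all exons with one direction in both replicates, the 5 opposite ones of each kind with the largest smaller change, the 5 largest per direction in each table alone, exons of MYL6, GADD45A, MAZ, CD44, SMARCA2 and SMARCA4, up to 4 exons and 6 genes per list, and the 25 genes with the largest ratio in each direction, of which 5 are given for the lower one. The members, gene lists and rules were chosen with earlier results of these data known. Alternatives were untransformed PSI, bounds of 0.05 and 0.95, single events, a change of at least 0.2, forms under 50% of the longest left out, a replicate block, each library left out, base means as deposited, a minimum of 10, and tables left out. Promoters were from RefSeq (GRCh38.p14). Some genes of the lists and 1 exon sequence are not reported here.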

Additional observations from a re-analysis of the deposited data

How the results depend on the processing

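The limma fit of PSI called 0 exons under every alternative run, and the count with an unadjusted p under 0.05 was 0 for untransformed PSI, for bounds of 0.05 and 0.95, for the 293 single events and for the 184 exons with a change of at least 0.2 in both replicates. Leaving out 1 library gave calls from 0 to 0, where the lone library of a group is assumed to vary like the others, and the unadjusted count was 0 without either control library, 7 without BRM-wt replicate 1 and 17 without BRM-wt replicate 2. With the replicate number as a block the count of calls was 0. The deviations of same-numbered libraries had r = -0.86 over these exons, but the exons were listed because those libraries differed, so the pairing cannot be judged from it. A crossed pairing of control replicate 1 with BRM-wt replicate 2 and the reverse, chosen after seeing the data, also gave 0 calls, with 8 exons at an unadjusted p under 0.05. Of the 13 exons with one direction, 6 had a change of at least 0.2 in both replicates, and single events gave 13 as well. Among changes of at least 0.2, the share of exons higher in BRM-wt was 63.6% in replicate 1 and 39.4% in replicate 2. With a minimum base mean of 10, 168 genes were past the ratio. The base means as deposited left 48 of the 51 genes past the ratio, the tables without BRM-mut 41 and those without BRG1-mut 51. Fewer exons or more genes entered under the settings with a minimum change or a lower minimum. The 25 named genes stayed past the ratio under each of these. Without the BRM-mut table the ratios of 7 (KRT80, SP100, MX1, MX2, OAS1, IFI6 and LGALS3BP) were lower by over 1.5 times, at most 2.21 times. Single events gave shares of higher exons of 59.9% in replicate 1 and 43.6% in replicate 2. With short forms left out these shares were 60.5% and 42.9%. The lack of reads per event and of counts per library limits each value named here.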
